A study of Mus musculus with 12 samples.

Results

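The 10 genes studied belong to the unfolded protein response and the integrated stress response, and were followed in large peritoneal macrophages, long-lived phagocytes that reside in the abdominal cavity of mice. They were taken from the table of 57010 genes by matching Ensembl identifiers to the symbols Hspa5, Hsp90b1, Pdia4, Pdia6, Xbp1, Atf4, Ddit3, Trib3, Chac1 and Asns. All 10 were found. Ddit3 had a second identifier, listed at 0 in all 12 libraries, so the values given for it are those of ENSMUSG00000025408. The low-count filter kept 9 of the 10 genes for testing and dropped Chac1.

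The libraries came from 4 groups of 3, all from sorted macrophages with high F4/80 and low MHC class II staining. WT naive and Tim4KO naive cells came from uninjected wild-type mice and from mice lacking the scavenger receptor Tim4. WT ID8 and Tim4KO ID8 cells came from female mice of the same genotypes that had received ID8 cells intraperitoneally at an age of 8 weeks, with sorting after 24 h. ID8 is a mouse ovarian tumour cell line, here carrying the fluorescent protein ZsGreen and the model antigen OVA. Challenged macrophages were sorted as ZsGreen positive and naive ones were not, so the challenge comparison holds exposure to tumour cells and selection for uptake together. The labels do not say how the Tim4 mutation was made, whether the mice were littermates, or whether each library was a separate animal. The p-values therefore measure the spread between these libraries, which may be technical in part.

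Cells that make or digest much protein rely on chaperones of the endoplasmic reticulum (ER). When unfolded protein builds up there, the sensor IRE1 splices the mRNA of Xbp1, ATF6 is cleaved into a transcription factor, and PERK phosphorylates the translation factor eIF2; XBP1 and ATF6 then raise ER chaperones. PERK shares its target with the kinases GCN2, PKR and HRI, which sense amino acid shortage, double-stranded RNA and heme lack, and phosphorylated eIF2 favours translation of ATF4, which raises genes of amino acid supply and, with CHOP, of cell death. Splicing of Xbp1, eIF2 phosphorylation and ATF4 protein are not measured by gene counts.

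Promoter stretches of 6 of the genes are shown first because they carry, or lack, the sequence elements through which these 2 branches are known to act. They come from RefSeq on build GRCm38.p6, in which all 10 genes had a window of 250 bases before and 50 after the start. The submitters' processing notes name both mm10 and GRCm39, so the positions belong to the RefSeq table and not to the counts. The 4 motifs were searched on both strands. They were the ER stress element ERSE (CCAAT and CCACG with 9 bases of any kind between them), ERSE-II (ATTGG and CCACG with 1 base between them, so that it shares its CCACG end with ERSE), the XBP1-type element UPRE (TGACGTGG) and the C/EBP-ATF response element CARE (TGATGNAAN). Capitals mark a match on either strand, and each stretch runs 5′ to 3′ on the strand of its gene and ends at the base before the start.
Hspa5, chr2:34771940-34772089, plus strand: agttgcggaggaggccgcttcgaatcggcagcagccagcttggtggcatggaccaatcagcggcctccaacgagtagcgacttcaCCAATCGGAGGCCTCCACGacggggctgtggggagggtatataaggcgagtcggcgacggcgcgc
Hsp90b1, chr10:86705445-86705694, minus strand: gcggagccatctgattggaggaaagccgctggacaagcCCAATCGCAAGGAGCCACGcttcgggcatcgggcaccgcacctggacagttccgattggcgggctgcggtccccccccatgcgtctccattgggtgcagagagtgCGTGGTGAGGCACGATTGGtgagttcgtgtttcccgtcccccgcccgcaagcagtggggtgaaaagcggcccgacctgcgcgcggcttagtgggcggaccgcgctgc
Pdia6, chr12:17266439-17266588, plus strand: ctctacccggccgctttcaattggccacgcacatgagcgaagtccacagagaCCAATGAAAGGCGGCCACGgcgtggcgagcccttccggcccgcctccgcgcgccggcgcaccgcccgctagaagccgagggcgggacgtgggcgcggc
Pdia4, chr6:47813513-47813662, minus strand: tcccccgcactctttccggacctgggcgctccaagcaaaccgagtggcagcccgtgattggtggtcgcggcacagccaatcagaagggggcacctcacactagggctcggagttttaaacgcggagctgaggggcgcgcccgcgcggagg
Asns, chr6:7693210-7693359, minus strand: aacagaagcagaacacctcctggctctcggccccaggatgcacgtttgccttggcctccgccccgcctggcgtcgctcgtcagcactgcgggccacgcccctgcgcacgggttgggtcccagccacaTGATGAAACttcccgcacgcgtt
Chac1, chr2:119350992-119351241, plus strand: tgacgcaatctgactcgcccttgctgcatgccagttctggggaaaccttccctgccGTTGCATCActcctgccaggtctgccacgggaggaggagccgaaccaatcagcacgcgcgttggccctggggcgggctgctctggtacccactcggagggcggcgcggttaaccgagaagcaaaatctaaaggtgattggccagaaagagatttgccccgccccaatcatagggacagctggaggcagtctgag

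ERSE was found in Hspa5 at -65 to -47, in Pdia6 at -98 to -80 and at 2 places in Hsp90b1, at -212 to -194 and, on the opposite strand, at -107 to -89. Of 32851 promoter windows searched, 0.119% held ERSE. CARE was found in Asns at -23 to -15 and, on the opposite strand, in Chac1 at -194 to -186 and in Trib3 at 14 to 22 after the start, against 3.95% of all windows. Pdia4, Xbp1, Atf4 and Ddit3 held no match to any of the 4 in this window. ERSE-II (0.0365% of windows) and UPRE (0.676%) were found in 0 of the 10. These are matches of letters and not measured binding.

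Library totals ran from 7358559 to 23170244 counts, and 15943 genes were tested. The 7 markers of large peritoneal macrophages, Adgre1, Gata6, Icam2, Itgam, Timd4, Csf1r and Cd5l, were all detected. They summed to 7268 to 9936 CPM (counts scaled to a common library total) in naive and 10532 to 14181 CPM in ID8 libraries, so this sum also moved with the challenge, and its part in the results was not tested. Adgre1, Icam2, Itgam and Cd5l were higher in every ID8 library than in every naive one. Gata6 was higher in every challenged Tim4KO library and overlapped in WT. Csf1r (1189 to 1343 CPM naive, 1017 to 1074 CPM ID8 in Tim4KO) and Timd4 were lower in every challenged Tim4KO library and overlapped in WT. Timd4, which encodes Tim4, reached 882 to 1489 CPM in WT libraries, 7.21 to 7.71 in Tim4KO naive and 1.38 to 1.92 in Tim4KO ID8. WT ID8 3 stood apart through 8 cell cycle genes, which summed to 1668 CPM there, to 245 and 257 CPM in the other libraries of that group and to 278 to 376 CPM in Tim4KO ID8. In naive libraries they summed to 137 to 248 CPM in WT and 121 to 235 CPM in Tim4KO, the latter below every challenged Tim4KO library. Their members went different ways in Tim4KO. Mcm2 (10.7 to 18.4 CPM naive, 74.8 to 117 CPM ID8), Mcm5 and Pcna were higher in every challenged library. Ccnb1 (4.26 to 14.8 CPM naive, 2.23 to 3.34 CPM ID8) and Ccna2 were lower in every challenged library, and Mki67, Top2a and Cdk1 overlapped. The part of this list in the results was not tested either. The 7 epithelial or tumour markers summed to 0.0913 to 2.99 CPM in challenged WT and 0.384 to 2.77 CPM in challenged Tim4KO libraries, below or within the 2.0 to 20.6 CPM of naive libraries. The 6 plasma cell markers, from a cell type rich in ER chaperones, summed to 2.75 to 6.53 CPM over all libraries, but went different ways. Sdc1 was higher in every ID8 library (0.735 to 1.58 CPM naive, 1.75 to 4.97 CPM ID8), and Derl3 was higher in the ID8 libraries of each genotype. Igkc and Iglc2 were lower in every challenged WT library and overlapped in Tim4KO. Mzb1 overlapped. Jchain reached at most 0.699 CPM and was at 0 in every WT ID8 library, in WT naive 2 and in Tim4KO ID8 2. In bulk RNA, fewer cells of a type and less RNA per cell cannot be told apart.

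Levels were compared between genes as CPM per kilobase of exon. In WT naive cells the order was Hspa5 (344 ± 91.9, SD, n = 3), Hsp90b1 (151 ± 15.9), Pdia6 (139 ± 20.5), Xbp1 (121 ± 17.6) and Pdia4 (86.4 ± 18.6). Atf4 followed at 18.4 ± 3.12, Ddit3 at 1.41 ± 0.623, Trib3 at 0.391 ± 0.149, Asns at 0.322 ± 0.00861 and Chac1 at 0.154 ± 0.15 CPM per kilobase. Hsp90b1, Pdia6 and Xbp1 lay within their spread of each other, as did Trib3 and Asns. In WT ID8 cells Hspa5 led at 830 ± 360, ahead of Pdia6 (299.6 ± 27.6), Hsp90b1 (260 ± 45.6), Pdia4 (233 ± 56.4) and Xbp1 (97.5 ± 21.2). Asns stood at 1.39 ± 0.661 CPM per kilobase there, next to Ddit3 at 1.64 ± 0.244. The 5 genes of the ER branch were thus far more abundant in every group than the genes downstream of ATF4.

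**Figure D1:**
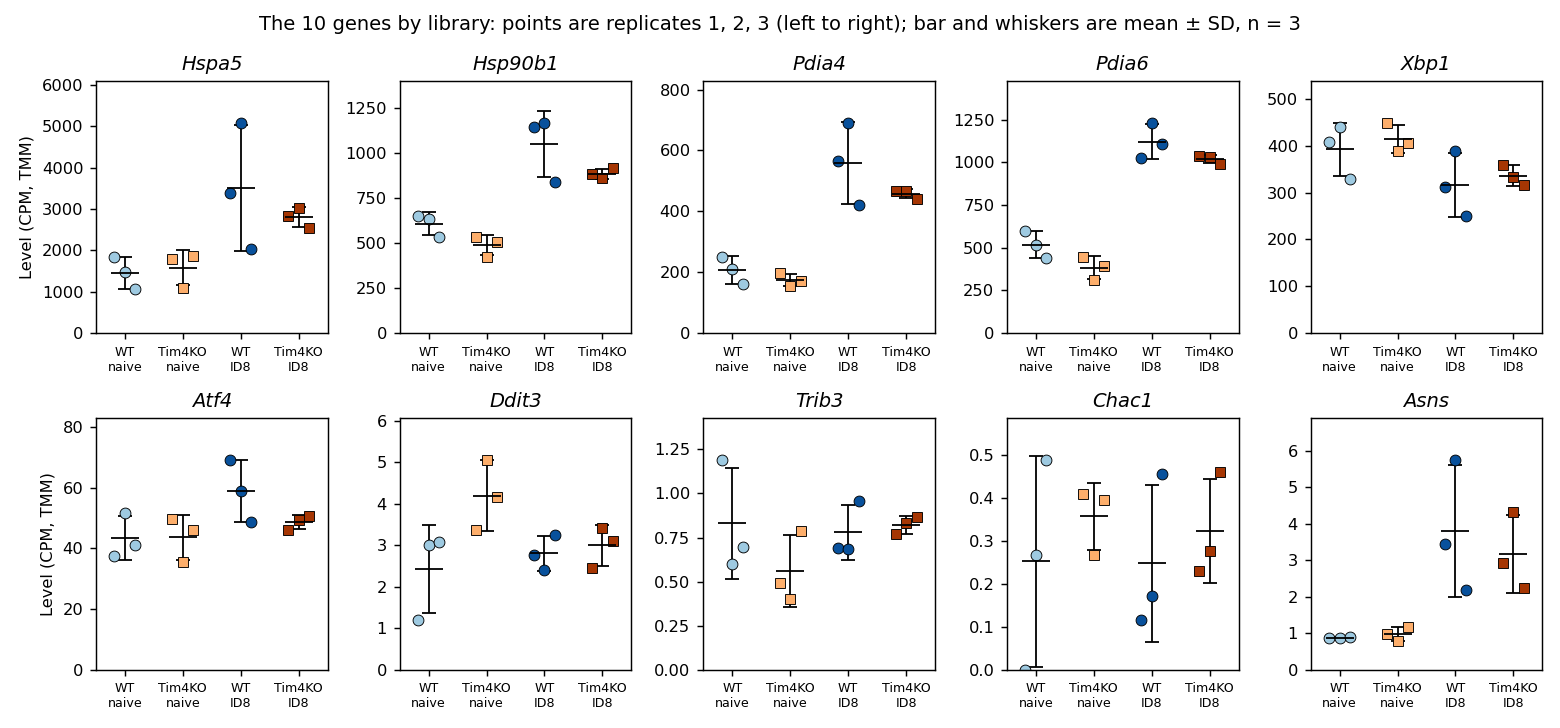
Level in CPM, on linear axes that start at 0 and differ between panels, of the 10 genes in each of the 12 libraries, with points for libraries and bars and whiskers for mean ± SD (n = 3). Hspa5, Hsp90b1, Pdia4, Pdia6 and Asns sit higher in every ID8 library than in every naive library of the same genotype, while Ddit3, Trib3 and Chac1 overlap between naive and ID8 cells.

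The first question was how the ER chaperones and folding enzymes differed 24 h after the challenge. In WT cells Hspa5, Hsp90b1, Pdia4, Pdia6 and Asns rose, which is 5 of the 9 tested genes higher and 0 lower. Of all tested genes 31.8% were called in this comparison, 19.5% as higher and 12.3% as lower. In Tim4KO cells Hsp90b1, Pdia4, Pdia6 and Asns rose, 4 of 9 higher and 0 lower, where 16.6% of all tested genes were called, 11.5% as higher and 5.06% as lower. The same 5 genes did not overlap between naive and ID8 libraries in either genotype, all higher after challenge (23.3% of all tested genes did so in WT and 23.7% in Tim4KO). In the lower direction 0 of 9 were separated in WT (21% of all tested genes) and 1 in Tim4KO, Xbp1 (18.1%).

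Hspa5 encodes BiP, the main ER chaperone of the HSP70 family, which also holds the stress sensors inactive. It measured 1835, 1471 and 1057 CPM in naive and 3399, 5082 and 2044 CPM in challenged WT cells, and 1782, 1090 and 1859 CPM in naive and 2838, 3019 and 2551 CPM in challenged Tim4KO cells. Both ID8 groups lay wholly above both naive groups, and WT ID8 2 was the highest. Hspa5 rose 2.41-fold in WT cells (1.27 on the log2 scale with an SE of 0.31, edgeR adjusted p = 0.00931). In Tim4KO cells the log2 change was 0.83 (SE 0.31, 95% interval 0.16 to 1.5) and did not pass the test (edgeR adjusted p = 0.0897). It passed there with DESeq2 (adjusted p = 0.0275), in a fit to the 2 groups alone (edgeR adjusted p = 0.00877), and in edgeR without WT ID8 2 (adjusted p = 0.0312) or WT ID8 3 (adjusted p = 0.0175).

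Hsp90b1 encodes GRP94, the HSP90 chaperone of the ER, which folds Toll-like receptors and integrins. Its levels were 653, 635 and 534 CPM in naive and 1144, 1168 and 838 CPM in challenged WT cells, and 532, 424 and 508 CPM in naive and 884, 860 and 915 CPM in challenged Tim4KO cells. All ID8 libraries exceeded all naive ones, and Tim4KO naive libraries lay lowest. The log2 change was 0.79 in WT (SE 0.15, edgeR adjusted p = 0.00112) and 0.86 in Tim4KO (SE 0.15, edgeR adjusted p = 0.00125). The exons of Hsp90b1 share 415 bases with 1810014B01Rik on the opposite strand, whose reads could be counted with it if strand was not used.

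Pdia4 and Pdia6 encode protein disulfide isomerases, which form and shuffle disulfide bonds in the ER. Pdia4 stood at 249, 212 and 160 CPM in naive and 565, 690 and 420 CPM in challenged WT cells, and 196, 156 and 171 CPM in naive and 467, 465 and 441 CPM in challenged Tim4KO cells. Its ID8 and naive libraries were separated in both genotypes, with a log2 change of 1.43 in WT (SE 0.18, edgeR adjusted p = 7.68e-05) and 1.39 in Tim4KO (SE 0.18, edgeR adjusted p = 0.00019). Pdia6 had 596, 518 and 443 CPM in naive and 1026, 1231 and 1110 CPM in challenged WT cells, and 446, 310 and 391 CPM in naive and 1040, 1029 and 991 CPM in challenged Tim4KO cells. The ID8 libraries of both genotypes reached a like level from naive levels that were lower in Tim4KO on average. Pdia6 rose by 1.11 on the log2 scale in WT (SE 0.15, edgeR adjusted p = 0.000105) and by 1.42 in Tim4KO (SE 0.15, edgeR adjusted p = 3.49e-05).

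Xbp1, whose mRNA is the substrate of IRE1 and encodes a factor that raises chaperone and degradation genes, was called in neither genotype. It measured 409, 440 and 329 CPM in naive and 312, 388 and 250 CPM in challenged WT cells, and 449, 389 and 406 CPM in naive and 360, 332 and 317 CPM in challenged Tim4KO cells. The WT groups overlapped, and the Tim4KO groups did not, with ID8 lower. The log2 change was -0.31 in WT (95% interval -0.64 to 0.02, edgeR adjusted p = 0.135) and -0.30 in Tim4KO (95% interval -0.64 to 0.03, edgeR adjusted p = 0.212), so neither passed the test. Under upper-quartile scaling the WT value was -0.56 and passed (edgeR adjusted p = 0.0112), and in a fit to the 2 Tim4KO groups alone the value was -0.33 and passed (edgeR adjusted p = 0.0371).

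Atf4 encodes the transcription factor at the centre of the integrated stress response. Its levels were 37.4, 51.6 and 41.3 CPM in naive and 69.3, 59.1 and 48.7 CPM in challenged WT cells, and 49.8, 35.4 and 46.0 CPM in naive and 46.0, 49.3 and 50.8 CPM in challenged Tim4KO cells. WT ID8 3 lay within the WT naive range and the other 2 WT ID8 libraries above it, while the Tim4KO groups overlapped. The log2 change was 0.44 in WT (SE 0.16, edgeR adjusted p = 0.0521) and 0.15 in Tim4KO (edgeR adjusted p = 0.575). The WT value passed in 7 of the 12 fits that left out 1 library, among them 0.58 without WT ID8 3 (edgeR adjusted p = 0.00793), and also without the low-count filter (edgeR adjusted p = 0.0266).

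Asns encodes asparagine synthetase, a target of ATF4 through the CARE shown above. It measured 0.867, 0.868 and 0.908 CPM in naive WT cells (8 to 13 counts), 3.45, 5.76 and 2.19 CPM in challenged WT cells (30 to 67 counts), 0.984, 0.799 and 1.18 CPM in naive Tim4KO cells, and 2.92, 4.34 and 2.25 CPM in challenged Tim4KO cells. Every ID8 library exceeded every naive one, and replicate 2 was the highest in both ID8 groups. Asns rose 4.24-fold in WT (log2 change 2.08, SE 0.42, edgeR adjusted p = 0.00187) and 3.09-fold in Tim4KO (log2 change 1.63, SE 0.41, edgeR adjusted p = 0.0142), the largest fold changes among the 9 tested genes at one of the lowest levels. The Tim4KO value did not pass with limma voom (adjusted p = 0.0708) or in edgeR without Tim4KO naive 2 (adjusted p = 0.0639) or Tim4KO ID8 2 (adjusted p = 0.075).

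Ddit3 encodes CHOP, a factor of prolonged ER stress that favours cell death. It stood at 1.19, 3.0 and 3.07 CPM in naive and 2.76, 2.41 and 3.24 CPM in challenged WT cells, and 3.36, 5.06 and 4.17 CPM in naive and 2.46, 3.41 and 3.11 CPM in challenged Tim4KO cells. Naive and ID8 libraries overlapped in both genotypes. The log2 change of 0.19 in WT (95% interval -0.53 to 0.91, edgeR adjusted p = 0.673) and of -0.48 in Tim4KO (95% interval -1.18 to 0.22, edgeR adjusted p = 0.362) did not pass, and an increase as large as that of Asns in WT is outside both intervals. Its exons share 68 bases with Mars on the opposite strand and 105 bases on the same strand with the second Ddit3 identifier, and how the counting treated such shared reads is not given in the sources used here.

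Trib3 encodes a pseudokinase that restrains ATF4 and CHOP, and Chac1 an enzyme that degrades glutathione. Trib3 lay between 0.399 and 1.19 CPM over all 12 libraries (3 to 21 counts), and its groups overlapped in every comparison. The log2 change was -0.04 in WT (95% interval -1.23 to 1.14, edgeR adjusted p = 0.955) and 0.50 in Tim4KO (95% interval -0.70 to 1.70, edgeR adjusted p = 0.593). Chac1 had 0 to 10 counts per library, 11 in all of WT naive, 13 in WT ID8 and 14 in each Tim4KO group, so no difference was detectable at this depth. For scale, 1713 olfactory and vomeronasal receptor genes, which macrophages are not known to use, averaged 0.00115 to 0.142 CPM per kilobase per library, with a 95th percentile of up to 0.404 in WT naive 1. Receptor genes with a mean above 1 CPM over the 12 libraries had been left out, so the top of this range is limited by that choice. Outside WT naive 1 the 95th percentile was 0 to 0.227, and 0 to 0.193 in ID8 libraries. Chac1 group means of 0.151 to 0.218 lay within that range. The naive means of Asns (0.322 in WT, 0.361 in Tim4KO) and Trib3 (0.391 and 0.264) exceeded the 95th percentile of every library but WT naive 1. Trib3 means of 0.366 in WT ID8 and 0.386 in Tim4KO ID8 exceeded that of every ID8 library. In WT ID8 3, where it was 0, Trib3 stood at 0.451 and Chac1 at 0.279. The reads of these receptor genes summed to 316 to 814 CPM in WT naive and 5.89 to 245 in WT ID8. In Tim4KO they summed to 259 to 435 CPM in naive and 41.0 to 347 in ID8 libraries. The naive and ID8 sums were thus separated in WT and overlapped in Tim4KO, and their part in the values of Asns was not tested.

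**Figure D2:**
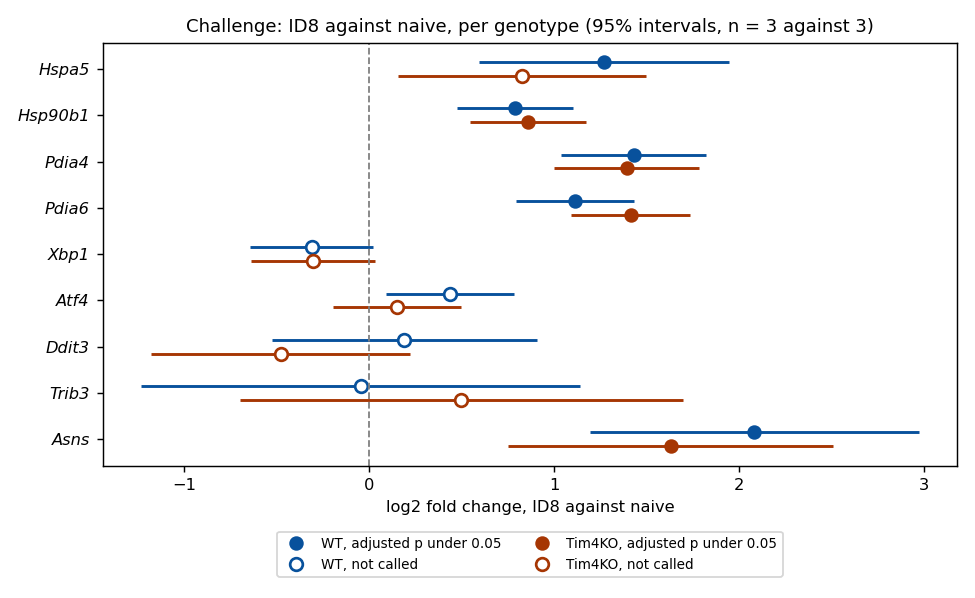
Log2 fold change of ID8 against naive for the 9 tested genes in WT and in Tim4KO cells, with 95% intervals and filled points for genes called by edgeR. Hspa5, Hsp90b1, Pdia4, Pdia6 and Asns lie between 0.79 and 2.08, and Xbp1 lies at -0.31 and -0.30.

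The other genes of both responses were examined as 8 lists of 117 genes, of which 113 were tested. These lists were chosen with earlier results of these data known. In WT cells 58 rose and 6 fell, which is 51.3% and 5.31%, against 19.5% and 12.3% of all tested genes. The median log2 change was 0.58 against -0.04 over all tested genes. In Tim4KO cells 47 rose and 3 fell, 41.6% and 2.65%, against 11.5% and 5.06% of all tested genes, with a median of 0.41 against -0.05. With upper-quartile scaling 44 genes were called higher and 10 lower in WT, and 38 higher and 8 lower in Tim4KO. That scaling also moved the median of all tested genes to -0.28 in WT and -0.17 in Tim4KO, and turned 3105 of 5067 calls higher in WT into 1799 of 5307 and 1836 of 2642 in Tim4KO into 1322 of 2716. The Tim4KO count of 50 calls (44.2% of the pathway genes tested) was 31 without Tim4KO naive 2 (27%) and 32 without Tim4KO ID8 2 (27.8%). Over all tested genes the share called was 16.6%, 7.04% and 8.18% in these 3 fits.

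Of 20 further ER chaperones and folding enzymes, 13 rose and 2 fell in WT and 12 rose and 1 fell in Tim4KO. Beside this list and the other ER lists, 19.5% of all tested genes rose and 12.3% fell in WT. In Tim4KO these shares were 11.5% and 5.06%. In WT, Ero1l, which reoxidizes disulfide isomerases, rose by 1.53 (SE 0.17, edgeR adjusted p = 2.01e-05), Dnajc10, a disulfide reductase, by 1.15 and Calr, the glycoprotein chaperone calreticulin, by 1.21. In Tim4KO, Calr rose by 1.47, P4hb, a disulfide isomerase, by 1.12 and Dnajc10 by 0.98. Dnajb9, a BiP cochaperone and a known target of spliced XBP1, went the other way. It fell by 0.57 in WT (edgeR adjusted p = 0.00383) and by 0.48 in Tim4KO (edgeR adjusted p = 0.0167), and is named here after its values were seen, as is Cnpy2, which fell by 0.40 in WT. The genes of ER-associated degradation split, 6 of 15 higher and 1 lower in WT and 4 higher and 1 lower in Tim4KO. Vcp, the ATPase that extracts proteins from the ER, rose by 0.89 and 0.55, Edem2, which marks misfolded glycoproteins for removal, by 0.55 and 0.62 and, in Tim4KO, Edem1 by 0.66, while Derl1, a channel subunit, fell by 0.83 in WT and by 0.45 in Tim4KO. Of 19 genes of translocation into and export from the ER, 9 rose and 0 fell in each genotype. Ssr2 of the translocon-associated complex rose by 1.16 in WT and 0.89 in Tim4KO, Srprb and Ssr3 rose in WT by 1.02 and 0.65, and the translocon subunits Sec61b and Sec61g rose in Tim4KO by 0.92 and 0.74. With upper-quartile scaling these counts of 9 were 6 in WT and 3 in Tim4KO. The Tim4KO call of Vcp was lost in 3 of 19 alternatives (edgeR adjusted p of 0.0546 to 0.0639), that of Sec61g in 2 and that of Edem1 in 1.

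Among the stress sensors calls were few and near the shares over all tested genes. Of 10 sensors and kinases, 3 rose and 1 fell in WT and 2 rose in Tim4KO. Of all tested genes, 19.5% rose and 12.3% fell in WT, and 11.5% rose and 5.06% fell in Tim4KO. The list medians of 0.13 and 0.05 turned to -0.12 and -0.06 with upper-quartile scaling. Ern1, which encodes IRE1, fell by 0.70 in WT (SE 0.21, edgeR adjusted p = 0.024) and had a log2 change of -0.60 in Tim4KO that did not pass (edgeR adjusted p = 0.0736). Eif2ak3, which encodes PERK, was at 0.03 and 0.01 and Atf6 at 0.20 and 0.17, none of which passed. The genes that rose were Eif2s1, the eIF2 subunit that is phosphorylated (1.18 in WT, 0.59 in Tim4KO), Atf6b, a relative of Atf6 (0.57 and 0.48) and, in WT, Eif2ak2, which encodes PKR (0.80). Of 9 genes of eIF2 dephosphorylation and feedback, 6 rose in WT and 2 in Tim4KO. Several of these encode subunits of eIF2B, the exchange factor that eIF2 needs in every translation round, with Eif2b1 at 0.92 and 0.53, Eif2b2 at 0.79 and 0.83, and Eif2b5 rising by 0.75 in WT. Ppp1r15a, the inducible phosphatase subunit GADD34, had log2 changes of 0.22 in WT and -0.01 in Tim4KO, neither of which passed. Several calls of these 2 lists were lost when 1 library was left out. Those of Ern1 and Eif2ak2 in WT were each lost in 4 of 19 alternatives (edgeR adjusted p of 0.0573 to 0.119 and 0.0562 to 0.0904), Ern1 without WT naive 2, WT naive 3, WT ID8 1 or WT ID8 2 and Eif2ak2 without WT naive 1, WT naive 3 or WT ID8 2 and with upper-quartile scaling. Ern1 passed in Tim4KO in 7 of 19. In Tim4KO the calls of Atf6b and Eif2s1 were each lost in 10 of 19 and that of Eif2b1 in 4. The WT call of Atf6b was lost in 2 of 19.

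Downstream of ATF4 the lists divided. Of 12 tested bZIP factors and stress effectors, 1 rose and 2 fell in WT and 0 rose and 1 fell in Tim4KO. Over all tested genes the shares were 19.5% higher and 12.3% lower in WT, and 11.5% and 5.06% in Tim4KO. Atf3, a bZIP repressor, rose by 0.76 in WT (edgeR adjusted p = 0.0258) and had 0.15 in Tim4KO, and Cebpg, a partner of ATF4, fell by 0.82 and 0.63. The Tim4KO call of Cebpg was lost in 3 of 19 alternatives. Ddit4, an inhibitor of mTORC1, fell by 1.51 in WT with an edgeR adjusted p of 0.0452, a call lost in 14 of 19 alternatives (adjusted p of 0.0519 to 0.185), among them the replicate block (adjusted p = 0.0758). The Atf3 call in WT was lost in 4 of 19, without WT naive 1, WT naive 2 or WT ID8 2 and with upper-quartile scaling (edgeR adjusted p of 0.0611 to 0.0879), and without Tim4KO naive 1 its value in Tim4KO was 0.57 and passed (edgeR adjusted p = 0.0399). Of 15 tested genes of amino acid transport and synthesis, 7 rose and 0 fell in each genotype. Mthfd2, a mitochondrial folate enzyme, rose by 2.30 in WT (SE 0.22, edgeR adjusted p = 6.06e-06), Psat1 of serine synthesis by 2.18 in WT and 2.17 in Tim4KO, Aldh18a1 of proline synthesis by 1.43 and 1.46, and Shmt2, a serine and glycine enzyme, by 1.19 in Tim4KO. All 13 cytosolic aminoacyl-tRNA synthetases on the list, the enzymes that charge tRNAs, rose in WT and 11 rose in Tim4KO, with list medians of 1.04 and 0.78. Vars rose by 1.26 and 1.07, Cars by 0.96 and 0.68, Aars by 1.37 in WT and Gars by 0.88 in Tim4KO. The CARE letters were found in 5 of the 7 synthetases with a RefSeq window, Aars, Gars, Iars, Tars and Yars. They were also found in 3 of 11 bZIP factors and effectors with a window (Atf3, Nupr1 and Vldlr). Among 14 amino acid genes with a window 3 held them (Pycr1, Slc1a4 and Slc7a11). Of all windows 3.95% did, and a link between CARE and the changes was not tested. Upper-quartile scaling left 12 and 10 of the 13 called higher.

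**Figure D3:**
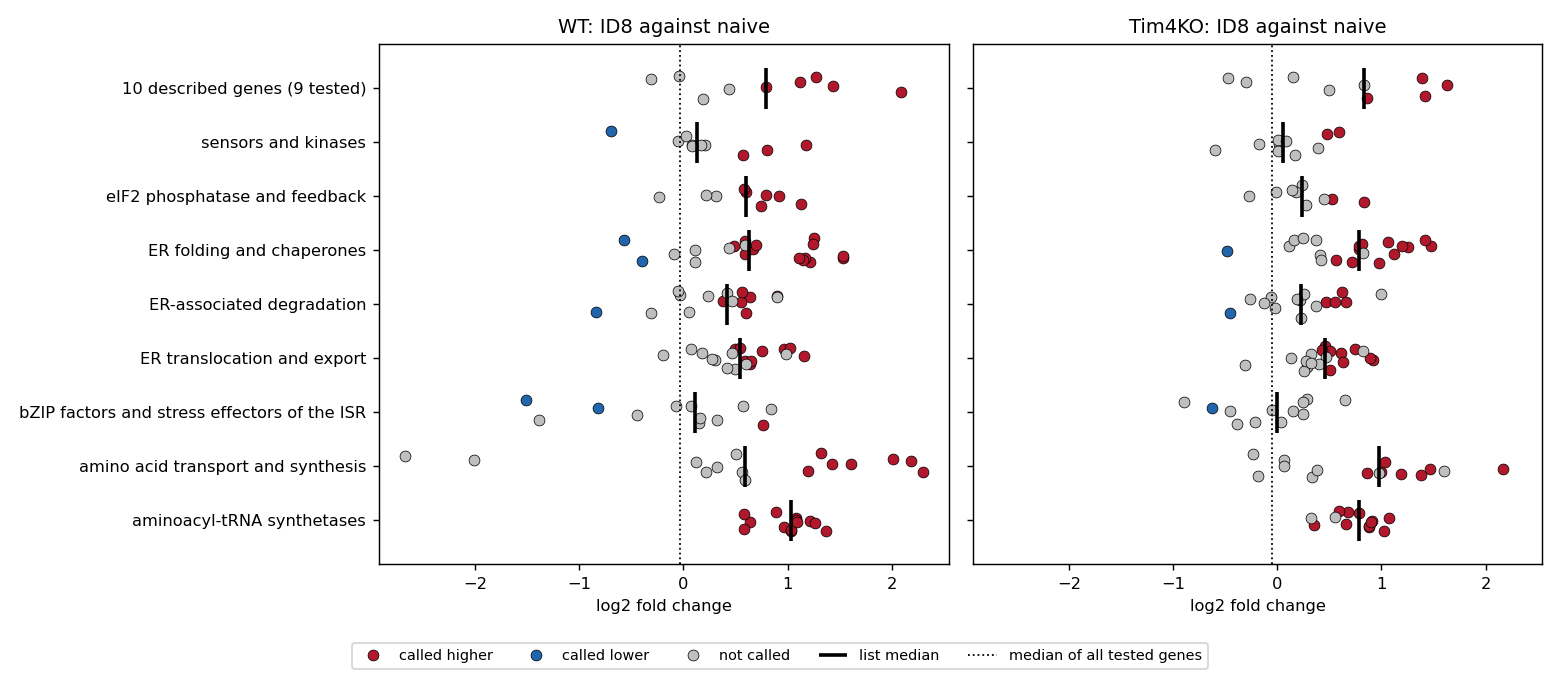
Log2 fold change of ID8 against naive in WT (left) and Tim4KO cells (right), 1 point per tested gene and 1 line per list, with red for called higher, blue for called lower, black bars for list medians and a dotted line for the median of all tested genes. All 13 synthetases lie above 0 in both genotypes, and the bZIP factors and effectors spread on both sides of it.

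The second question was whether the loss of Tim4 altered these genes. In naive cells 0 of the 9 tested genes differed between Tim4KO and WT, where 0.0439% of all tested genes did, and 3 had an unadjusted edgeR p under 0.05 (6.27% of all tested genes). Pdia6 was lower on average in Tim4KO, with a log2 difference of -0.44 (95% interval -0.76 to -0.12, edgeR adjusted p = 0.662). Hsp90b1 was lower in every Tim4KO naive library than in every WT naive one, with a difference of -0.31 (95% interval -0.63 to -0.0049, edgeR adjusted p = 0.784). Ddit3 was higher in every Tim4KO naive library, with a difference of 0.75 (95% interval 0.04 to 1.46, edgeR adjusted p = 0.778). Such separation was seen in 6.84% of all tested genes in the lower and 7.34% in the higher direction. None of these 3 passed the adjusted test. The other differences were 0.12 for Hspa5 (95% interval -0.55 to 0.78), -0.25 for Pdia4 (-0.64 to 0.14), 0.08 for Xbp1 (-0.25 to 0.41), 0.01 for Atf4 (-0.34 to 0.36), -0.49 for Trib3 (-1.70 to 0.72) and 0.19 for Asns (-0.75 to 1.14).

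In challenged cells 0 of 9 differed between genotypes, against 0.0565% of all tested genes, and 0 had an unadjusted edgeR p under 0.05 (12.1% of all tested genes). The groups overlapped for all 9, while 7.06% of all tested genes were separated as higher and 8.56% as lower in Tim4KO. The log2 differences were -0.32 for Hspa5 (95% interval -0.99 to 0.34), -0.24 for Hsp90b1 (-0.55 to 0.07), -0.29 for Pdia4 (-0.67 to 0.10) and -0.14 for Pdia6 (-0.45 to 0.18). Xbp1 stood at 0.09 (-0.25 to 0.42), Atf4 at -0.27 (-0.62 to 0.07), Ddit3 at 0.08 (-0.62 to 0.79), Trib3 at 0.06 (-1.11 to 1.22) and Asns at -0.26 (-1.06 to 0.54). Challenged libraries of Hspa5 spread with an SD of 1522 CPM in WT and 236 CPM in Tim4KO. Among the 113 further genes 0 were called by edgeR in either condition, with 16 at an unadjusted p under 0.05 in each (6.27% of all tested genes in naive and 12.1% in challenged cells). In naive cells 11 of the 113 were separated as higher in Tim4KO and 4 as lower (7.34% and 6.84% of all tested genes). In challenged cells 10 were higher and 8 lower (7.06% and 8.56%). Herpud1, Syvn1, Dnajb9 and Eif2ak3, named after their values were seen, were among those higher in both conditions. Ern1, Eif2ak3, Atf6, Ppp1r15a and Atf3 differed in naive cells by 0.14, 0.44, 0.24, 0.08 and 0.64 and in challenged cells by 0.24, 0.42, 0.20, -0.15 and 0.02, none called. Without WT ID8 3, 11 of 115 tested pathway genes (9.57%) were called in challenged cells, against 997 of 17374 genes in all (5.74%), and 4 of the 11 were higher in Tim4KO and 7 lower. The lower ones were Mthfd2 (-0.92), Slc7a5 (-1.06), Slc3a2 (-0.75), Aars (-0.57), Eif2b3 (-0.87), Eif2s1 (-0.59) and Creld2 (-1.06), the last from the list of ER chaperones and folding enzymes. The higher ones were Eif2ak3 (0.61), Dnajb9 (0.54), Herpud1 (0.90) and Bbc3 (0.79). All 11 are named after their values were seen. Of the 9 genes tested, 0 were called without that library.

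**Figure D4:**
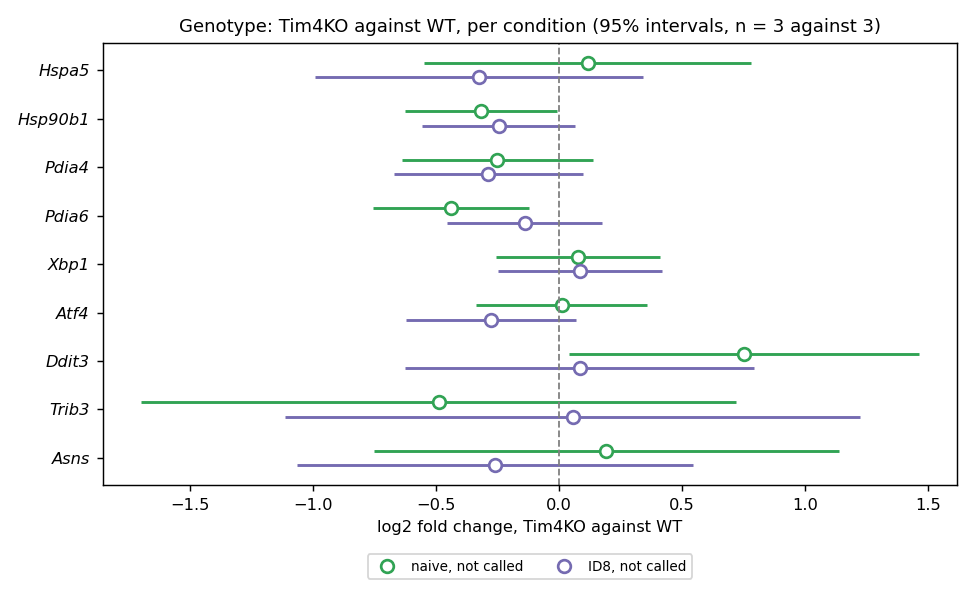
Log2 difference of Tim4KO against WT for the 9 tested genes in naive and in challenged cells, with 95% intervals. No gene was called in either condition, and the intervals of Pdia6, Hsp90b1 and Ddit3 in naive cells lie to one side of 0.

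The interaction asked whether the challenge response itself differed between genotypes. None of the 9 genes passed by edgeR, 0 also had an unadjusted p under 0.05, and 0 also passed with DESeq2 or limma voom; of all tested genes 0% were called and 7.44% had an unadjusted p under 0.05. The Tim4KO response minus the WT response was -0.44 for Hspa5 (95% interval -1.38 to 0.50), 0.07 for Hsp90b1 (-0.37 to 0.51), -0.04 for Pdia4 (-0.58 to 0.51) and 0.30 for Pdia6 (-0.14 to 0.75). For Xbp1 it was 0.01 (-0.46 to 0.48), for Atf4 -0.29 (-0.78 to 0.20), for Ddit3 -0.67 (-1.67 to 0.33), for Trib3 0.54 (-1.13 to 2.22) and for Asns -0.45 (-1.69 to 0.79). That Hspa5 passed in WT and not in Tim4KO is therefore not a shown difference between genotypes.

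Genes with the pattern most like those of Hspa5 and Asns were sought by the root mean square difference of log2 CPM over the 12 libraries, each gene centred on its own mean. Nearest to Hspa5 among 10228 genes were Manf (0.154), itself secreted under ER stress, Snrpa1 (0.162), a splicing factor, Ddx21 (0.167), Mtap (0.167) and Bop1 (0.168), with Ddx21 and Bop1 known from ribosome assembly. Nearest to Asns among 10229 genes were Ctps (0.198), which makes CTP, Nomo1 (0.226), Alg8 (0.248), Alg3 (0.253) and AI506816 (0.258). Alg8 and Alg3 build the glycan that is attached to proteins in the ER. All 12 libraries are shared by the genes compared.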

How the data were processed

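Large peritoneal macrophages were profiled by RNA-seq in 12 libraries, and the SMART-Seq mRNA LP kit was used for library preparation per the labels' protocols. The authors deposited raw counts per Ensembl gene, an unnormalized unit as judged from whole-number values whose totals vary by library. The submitters' processing notes name FastQC, STAR 2.5, mm10 and GRCm39. The counting program and the handling of strand and shared reads are not given in the sources used here. All columns matched a library by name (0 unmatched). Symbols, exonic lengths and exon overlaps came from GENCODE vM21, in which 52029 identifiers had a name.

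Tests used edgeR 4.0.16 (R 4.3.3) with filterByExpr, TMM scaling (trimmed mean of M values), a robust quasi-likelihood fit with a mean per group over all 12 libraries (8 residual degrees of freedom) and 5 comparisons. Calls needed a two-sided Benjamini-Hochberg adjusted p below 0.05 among 15943 genes. "Rose" and "fell" mean called. Levels are TMM-scaled CPM, and an SE or 95% interval belongs to a log2 difference. On that scale 3 counts equal 0.137 to 0.399 CPM in libraries of 7358559 to 23170244 counts; this covers counting error only, since no molecular identifiers were used.

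The alternatives tried were edgeR with upper-quartile scaling, edgeR with the size factors of DESeq2, no low-count filter, DESeq2 1.42.0, limma 3.58.1 voom, the replicate number as a block, a fit to the 2 groups compared, and leaving out each library. The labels do not say that replicate numbers pair samples. Deviations from group means of same-numbered libraries correlated by -0.0947 to 0.328 over 18 pairs, 6 of them over 0.1. For WT naive with WT ID8 all 3 pairs were over 0.1 (0.103, 0.105 and 0.309), so the replicate numbers may pair libraries there. The values printed are those of the fit without the block; of the printed WT challenge calls the block changed that of Ddit4 alone.

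The members and lists were chosen with earlier results of these data known. Named beside the members were up to 3 called genes with the smallest p per list and comparison, the steps Ern1, Eif2ak3, Atf6, Ppp1r15a and Atf3, and the 5 genes nearest to Hspa5 and to Asns with a mean count of at least 50 (log2 CPM with a prior count of 2). The 9 marker lists were summed per library and not tested.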

Additional observations from a re-analysis of the deposited data

How the results depend on the processing

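Counts of called genes among the 9 tested members were 0, 0, 5, 4 and 0 in the naive genotype, ID8 genotype, WT challenge, Tim4KO challenge and interaction comparisons, and the replicate block gave the same counts. Of the 113 other genes of the pathway, 0, 0, 64, 50 and 0 were called, and 0, 0, 67, 49 and 0 with the replicate block, under which 4619 of all genes were called in the WT challenge against 5067. The 5 WT calls passed in all 12 fits without 1 library and in all 7 other settings, as did Hsp90b1, Pdia4 and Pdia6 in Tim4KO.

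In the naive genotype comparison 1 pathway gene was called without the low-count filter and 1 with DESeq2, against 0. In ID8 cells 3 were called without the filter and 3 with DESeq2, and the fits without 1 library gave 0 to 11. For the Tim4KO challenge they gave 31 to 56. For the interaction 1 was called without the filter, and the fits without 1 library gave 0 to 1, the 1 being Eif2b3 (-1.0) without WT ID8 3. Over all tested genes, calls numbered 7 in the naive genotype comparison (59 without the filter, 52 with DESeq2), 9 in the ID8 genotype comparison (264, 265, and 997 without WT ID8 3) and 0 in the interaction (73, 11, and 368 without WT ID8 3). The WT challenge had 5067 calls and 3102 in a fit to the 2 groups alone, and the Tim4KO challenge 2642 and 1222 without Tim4KO naive 2. The causes were not tested. Over single genes and settings 0 called values reversed, 64 lost a call, 22 gained one and 1765 stayed on the same side of the threshold. Of these 1765, 67 values in 19 gene and comparison pairs passed in neither setting and changed sign. Trib3 had no value in the fits to the naive or the WT groups alone, where it failed the filter. Depth limits Chac1 and Trib3, with at most 10 and 21 counts in a library.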

Other observations

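Marker lists of other cell types moved with the challenge beside the ER genes, and their part in the results was not tested. The 4 mast cell markers summed to 8.52 to 28.2 CPM in naive and 1.61 to 6.30 CPM in ID8 libraries, and the 5 B cell markers to 7.21 to 20.1 and 3.27 to 7.48 CPM. The 5 markers of small peritoneal macrophages or dendritic cells summed to 59.2 to 84.1 and 16.7 to 47.2 CPM. The 5 neutrophil markers summed to 6.15 to 8.86 CPM in naive and 9.72 to 27.3 CPM in ID8 libraries. Most of this sum was S100a8, at 4.40 to 7.38 CPM in naive and 9.13 to 24.8 CPM in ID8 libraries. Over both genotypes S100a9, Ly6g, Elane and Mpo overlapped between naive and ID8 libraries. Within WT, S100a9 was higher in every ID8 library (0.0668 to 0.325 CPM naive, 0.456 to 3.91 CPM ID8). Elane was lower in every WT ID8 library (0.325 to 0.768 CPM naive, 0 to 0.137 CPM ID8). The sum was thus higher after challenge, but its members did not move together. The 5 T or NK cell markers overlapped, with 2.53 to 4.26 and 2.46 to 7.46 CPM.

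Single libraries took the same place for many of the 9 tested genes. Tim4KO naive 2, the library with the fewest counts, was the lowest of its group for 8 of them and the highest for Ddit3. WT ID8 3 was the lowest of its group for 6, Hspa5, Hsp90b1, Pdia4, Xbp1, Atf4 and Asns, and WT ID8 2 the highest for 6.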
